A study of Rattus norvegicus with 6 samples.

Results

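The Toll-like receptors Tlr1, Tlr2, Tlr3, Tlr4, Tlr6, Tlr7 and Tlr9, the co-receptor Cd14 and the adaptor Myd88 were followed in rat brain tissue around an infarct at 3 d and 14 d after stroke and in brain tissue of naive rats. A gene was represented by probe sets whose annotation named that gene alone, and where several existed by the one with the highest mean. Of the 9 genes listed, 8 had such a probe set, 1 each, among 14497 genes with one in all. Tlr1 had none and has no value here. All 6 groups were male Sprague-Dawley rats, and each group was 1 array of 1 RNA pool. Young rats 3 to 4 months old (290 to 360 g) and aged rats 19 to 20 months old (520 to 600 g) had a stroke, made by raising the middle cerebral artery on a hook until flow stopped and then releasing it. Periinfarcted tissue of 19 young or 23 aged animals was pooled at 3 d, and likewise at 14 d. The naive rats had no stroke, were 3 to 5 months (young) or 18 to 20 months old (aged) and gave pools of 15 animals each. Naive tissue is labelled as healthy brain with no region given, so a regional difference and stroke cannot be told apart. Each pool was 1 array, which hides the spread between animals.

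Toll-like receptors are membrane proteins that sense microbial molecules and material released from damaged cells. Tlr2, Tlr4 and Tlr6 sit at the cell surface, where Tlr2 pairs with Tlr1 or Tlr6 to bind lipoproteins and Tlr4 binds lipopolysaccharide handed over by Cd14. Tlr3, Tlr7 and Tlr9 sit in endosomes and bind double-stranded RNA, single-stranded RNA and unmethylated CpG DNA. Myd88 carries the signal of all of these except Tlr3, which uses the adaptor Ticam1, and the pathways end at the transcription factors NF-kB and the interferon regulatory factors. In brain the receptors are best known from microglia and infiltrating macrophages, and Tlr3 also from astrocytes.

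The 250 bases before the start of each gene were searched for 3 motifs on both strands, as a description with no test. The RefSeq promoter table of assembly GRCr8 was used, which held all 9 genes, Tlr1 among them. An NF-kB site was found in 1 of the 9 windows, that of Tlr2, and in 6.33% of 33469 windows of the same length. The interferon response element, spelled GAAA, then NN for any bases, then GAAA, was found in Myd88 alone, against 3.41% of all windows. GAGGAA, the core that PU.1, a transcription factor of myeloid cells, binds, was found in Cd14, Tlr3, Tlr4, Tlr6, Tlr7 and Tlr9, which is 6 of 9, against 23.3% of all windows. In none of the 9 windows did matches of different motifs overlap, and in Tlr2 the NF-kB matches at 206 to 197 and at 205 to 196 bases before the start overlap each other. A match is a run of letters and does not show binding. The windows of Tlr2, Myd88 and Tlr7 are printed because each holds a match of another motif. Bases run 5′ to 3′ along the gene, and capitals mark the matches.
Tlr2, chr2:171504558-171504807, minus strand: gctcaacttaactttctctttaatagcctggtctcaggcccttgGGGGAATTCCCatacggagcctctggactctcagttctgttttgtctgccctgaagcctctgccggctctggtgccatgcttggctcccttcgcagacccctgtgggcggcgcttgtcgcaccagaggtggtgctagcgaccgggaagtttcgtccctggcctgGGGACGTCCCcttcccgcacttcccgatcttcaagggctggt
Myd88, chr8:127956231-127956480, minus strand: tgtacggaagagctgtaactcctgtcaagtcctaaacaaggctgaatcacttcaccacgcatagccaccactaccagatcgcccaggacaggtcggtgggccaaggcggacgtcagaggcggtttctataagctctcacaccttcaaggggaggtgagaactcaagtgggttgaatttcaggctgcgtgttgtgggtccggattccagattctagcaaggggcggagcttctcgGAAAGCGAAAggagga
Tlr7, chrX:30644176-30644425, plus strand: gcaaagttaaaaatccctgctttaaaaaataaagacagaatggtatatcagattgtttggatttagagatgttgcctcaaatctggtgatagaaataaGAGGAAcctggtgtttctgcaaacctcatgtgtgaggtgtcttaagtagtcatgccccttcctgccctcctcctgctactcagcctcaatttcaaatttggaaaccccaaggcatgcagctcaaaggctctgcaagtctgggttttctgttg

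Levels are the deposited values per probe set, taken as log2, and can be compared between arrays for 1 gene but not between genes. The array medians lay between 7.09 and 7.15. Differences after stroke were tested with limma in 1 fit over 10947 genes, with age and time as additive terms. The young and aged arrays of a time point then serve as each other's repeat, and 2 residual degrees of freedom remain. The p-values thus rest on how far these 6 pools depart from the additive model, not on a spread between repeat pools of a group. A true age difference in the response to stroke would count as error. Errors are standard errors of log2 differences from that fit, p-values were adjusted over all genes by Benjamini-Hochberg, and a gene is said to have risen or fallen where the adjusted p was under 0.05. All 8 genes entered the test. Tlr3, Tlr7, Tlr9 and Myd88 lay above the 40th percentile on all 6 arrays. Tlr4 lay above it on 5 arrays and just below it on the young naive one, whereas Tlr2, Tlr6 and Cd14 passed through the 4 stroke arrays alone. For these 3 the naive level lay in the dim range of the array, where the size of a rise is less certain. In bulk tissue, more cells of a type and more RNA per cell cannot be told apart.

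At both times all 8 genes were higher than in naive tissue, with each of the 4 stroke arrays above both naive arrays for every gene. That order held for 23.8% of all genes tested, for 33.8% with the 3 d arrays alone and for 28.3% with the 14 d arrays alone. At 3 d all 8 rose with limma, where 14.4% of all genes rose, 7.87% fell and 22.2% did either. At 14 d all 8 rose, where 13.6% of all genes rose, 11.4% fell and 25.0% did either. The 8 genes were chosen with earlier results of these data known. Their counts above these shares are thus a description and not independent evidence. The median change of the 8 genes was 1.285 at 3 d and 1.496 at 14 d, against -0.03 and -0.06 for all genes tested. Neither count rested on the filter, since all 8 genes were also past the threshold at both times with no filter. Without the young naive array 6 genes passed at 3 d and 6 at 14 d, without the aged naive array 6 and 5, and without the young 3 d array 7 at 3 d.

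**Figure D1:**
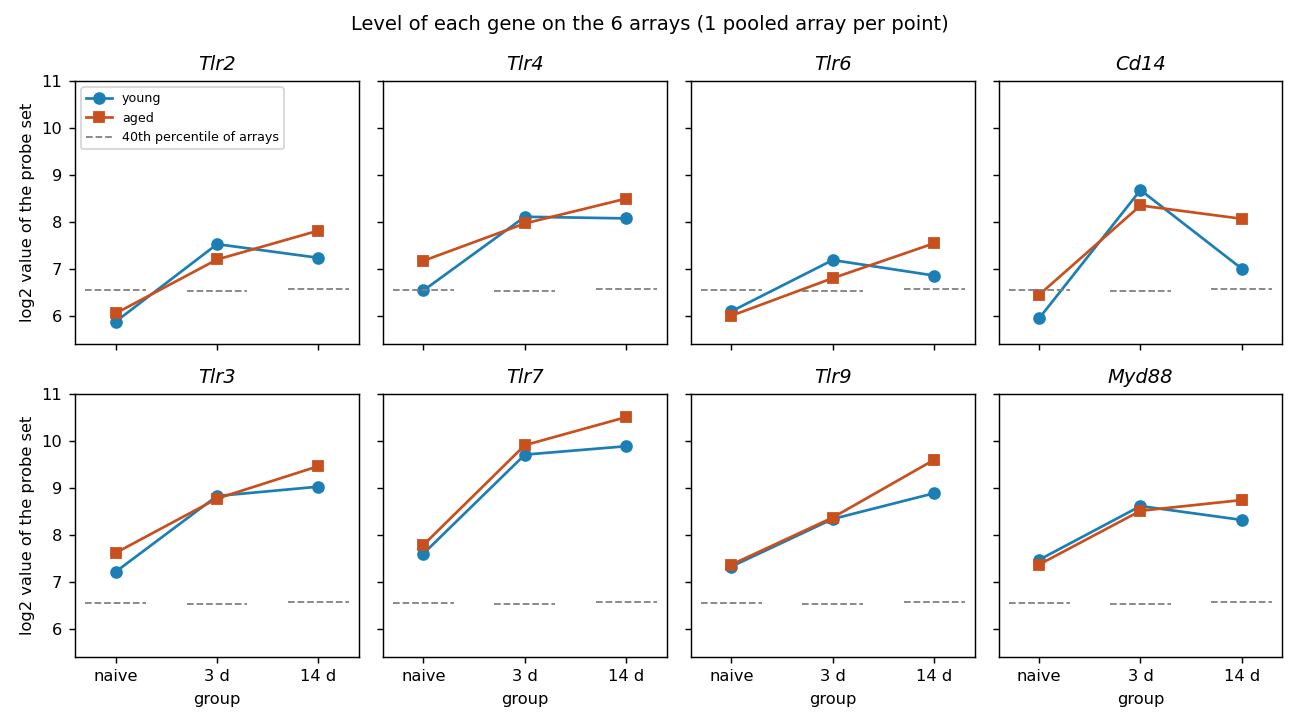
Level of each of the 8 genes (log2 value of its probe set) in naive tissue and at 3 d and 14 d after stroke. Circles are young pools and squares aged pools, 1 array each, lines join pools of 1 age that hold different animals, and dashed bars give the mean 40th percentile of the 2 arrays of that time. All stroke arrays lie above both naive arrays, and at 14 d the aged pool lies above the young one for every gene.

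Among the surface receptors, Tlr2 (probe set 10823970) had a level of 5.87 in young and 6.05 in aged naive tissue, 7.52 and 7.20 at 3 d, and 7.23 and 7.81 at 14 d. The naive arrays were lowest and the aged 14 d array highest. Tlr2 rose by 1.40 ± 0.20 at 3 d (2.64-fold, adjusted p = 0.00289) and by 1.56 ± 0.20 at 14 d (2.95-fold, adjusted p = 0.00178). Its change within each age was 1.65 in young and 1.15 in aged rats at 3 d, and 1.36 and 1.76 at 14 d.

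Tlr4 (10869535), the lipopolysaccharide receptor, had levels of 6.54 and 7.17 in young and aged naive tissue, 8.11 and 7.97 at 3 d, and 8.07 and 8.49 at 14 d. The aged naive array lay above the young one by 0.63, the widest naive age gap of the 8 genes, and below all stroke arrays. Tlr4 rose by 1.18 ± 0.19 at 3 d (adjusted p = 0.00424) and by 1.43 ± 0.19 at 14 d (adjusted p = 0.00185). Within each age the 3 d change was 1.57 in young and 0.80 in aged rats. Without the young naive array the 3 d change was 0.94 and no longer passed (adjusted p = 0.0525).

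Tlr6 (10772768), a partner of Tlr2, showed levels of 6.09 and 5.997 in young and aged naive tissue, 7.18 and 6.80 at 3 d, and 6.85 and 7.54 at 14 d. It rose by 0.95 ± 0.23 at 3 d (adjusted p = 0.0256, the highest of the 8 genes) and by 1.16 ± 0.23 at 14 d (adjusted p = 0.0114). At 3 d the call ended without the young naive (adjusted p = 0.096), aged naive (0.218) or young 3 d array (0.166), and at 14 d without the young naive (0.0568) or aged naive array (0.129).

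Cd14 (10803991), the co-receptor that passes lipopolysaccharide to Tlr4, had the largest fitted rise of the set at 3 d over both ages, though not in aged rats. Its level was 5.94 in young and 6.44 in aged naive tissue, 8.68 and 8.35 at 3 d, and 7.00 and 8.06 at 14 d. It was the only gene of the 8 whose highest array was a 3 d array, and both 14 d arrays lay below both 3 d arrays. Cd14 rose by 2.32 ± 0.28 at 3 d (4.99-fold, adjusted p = 0.0013), which placed it 93rd of 10947 genes ordered by change. Its 3 d change was 2.74 in young rats, above that of Tlr7 (2.11), and 1.90 in aged rats, below it (2.13). Without the young 3 d array it was 1.76, against 2.02 for Tlr7. At 14 d it stood 1.34 ± 0.28 above naive (2.53-fold, adjusted p = 0.0132), a call that ended without the young naive (adjusted p = 0.0941) or the aged naive array (0.1). Its 14 d change was 1.06 in young and 1.62 in aged rats.

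Of the endosomal receptors, Tlr7 (10933345), the sensor of single-stranded RNA, had levels of 7.60 and 7.79 in young and aged naive tissue, 9.71 and 9.91 at 3 d, and 9.89 and 10.51 at 14 d. All 4 stroke arrays stood above both naive arrays. It rose by 2.12 ± 0.15 at 3 d (4.34-fold, adjusted p = 0.000143) and by 2.51 ± 0.15 at 14 d (5.68-fold, adjusted p = 0.000119). At 14 d this was the largest change of the set and placed it 62nd of 10947. The 3 d change was alike in the ages, at 2.11 in young and 2.13 in aged rats.

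Tlr3 (10788238), the sensor of double-stranded RNA, had levels of 7.21 and 7.62 in young and aged naive tissue, 8.83 and 8.77 at 3 d, and 9.03 and 9.46 at 14 d. It rose by 1.39 ± 0.15 at 3 d (adjusted p = 0.000887) and by 1.83 ± 0.15 at 14 d (3.56-fold, adjusted p = 0.00026). Both 14 d arrays lay above both 3 d arrays.

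Tlr9 (10940595), the sensor of CpG DNA, rose in steps. Its level was 7.32 in young and 7.36 in aged naive tissue, 8.34 and 8.37 at 3 d, and 8.89 and 9.60 at 14 d. The 3 time points thus did not overlap, which also held for Tlr3 and, with 3 d the highest, for Cd14. The share of all genes with this trait was not computed, so how common it is remains unknown. Of all genes tested, 23.8% had all 4 stroke arrays above both naive arrays. Both 14 d arrays lay above both 3 d arrays for 12.5% and below them for 21.9%. Tlr9 rose by 1.01 ± 0.18 at 3 d (adjusted p = 0.00769) and by 1.90 ± 0.18 at 14 d (3.73-fold, adjusted p = 0.000497). The 3 d call ended without the aged naive array (0.85, adjusted p = 0.109).

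Myd88 (10920860), the adaptor shared by the receptors other than Tlr3, had levels of 7.47 and 7.37 in young and aged naive tissue, 8.61 and 8.51 at 3 d, and 8.32 and 8.74 at 14 d. Its 6 values spanned 1.38, the narrowest range of the set. It rose by 1.15 ± 0.16 at 3 d (adjusted p = 0.0025) and by 1.11 ± 0.16 at 14 d (adjusted p = 0.00284). The 14 d call ended without the aged naive array (0.98, adjusted p = 0.0532).

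**Figure D2:**
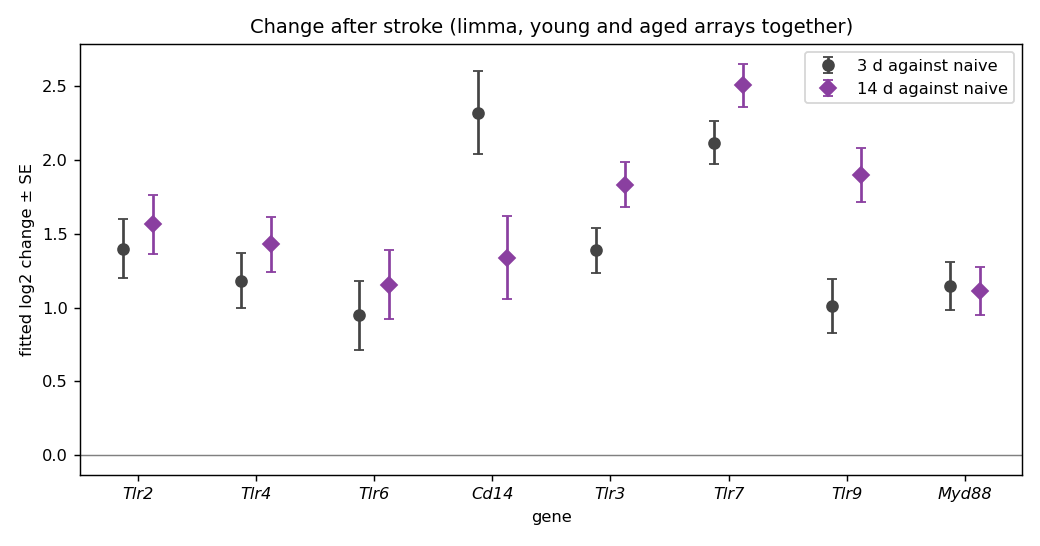
Fitted log2 change of each gene at 3 d (circles) and 14 d (diamonds) against naive tissue, with standard errors from limma over all 6 arrays. Over both ages Cd14 is the highest at 3 d (2.32), although in aged rats Tlr7 is, and Tlr7 is the highest at 14 d (2.51), and Cd14 and Tlr9 show the widest gaps between the times.

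The times were also compared directly, 14 d with 3 d. Tlr9 was higher at 14 d by 0.89 ± 0.18 (1.85-fold, adjusted p = 0.0479) and was the only one of the 8 past the threshold, where 1.34% of all genes were higher, 1.82% lower and 3.16% either. This call was marginal. It ended with the array medians centred (adjusted p = 0.0528), with no filter (0.0544), in a model of time alone (0.0994), and without the young naive (0.0913), aged naive (0.0913), aged 3 d (0.212) or aged 14 d array (0.0715). Both 14 d arrays lay above both 3 d arrays for Tlr3 and Tlr9, that is 2 of 8 genes against 12.5% of all genes, and below them for Cd14 alone, against 21.9%. Cd14 differed by -0.98 ± 0.28 (adjusted p = 0.157). Its difference was -1.68 in young and -0.28 in aged rats, and it passed without the aged 3 d array (-1.54, adjusted p = 0.00166) or without the aged 14 d array (-1.47, adjusted p = 0.00207). The differences of Tlr3 (0.45 ± 0.15) and Tlr7 (0.39 ± 0.15) did not pass (adjusted p = 0.268 and 0.328). Tlr7 (0.60, adjusted p = 0.0467) and Tlr6 (0.67, adjusted p = 0.0373) passed without the young 14 d array. Tlr2, Tlr4, Tlr6 and Myd88 differed by 0.16, 0.25, 0.21 and -0.03, each with a standard error at or above 0.16 and adjusted p between 0.728 and 0.974.

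Age was compared over the 3 matched pairs of arrays and within each. Over the pairs, none of the 8 genes differed between aged and young rats with limma, as 0 of 10947 genes did. At an unadjusted p under 0.05 there were 852 genes, 1 of them among the 8, Tlr7 (aged above young by 0.34 ± 0.12, adjusted p = 0.631). Within single pairs, which allow no test, the order of the ages varied with time. In naive tissue 6 of 8 were higher in the aged pool, with a median aged-minus-young difference of 0.18 (48.8% of all genes were higher, median -0.004). At 3 d 2 of 8 were higher, Tlr7 and Tlr9, with a median of -0.12 (37.5% of all genes, median -0.06). At 14 d all 8 were higher in the aged pool, by 0.42 for Tlr4 to 1.07 for Cd14 and with a median of 0.60, where 52.1% of all genes were higher and their median was 0.02. The aged 14 d array was the highest of the 6 for 7 of the 8 genes, all but Cd14, as for 22.5% of all genes. Marker genes of myeloid cells moved in the same pair. The median aged-minus-young difference at 14 d was 0.43 for 10 microglia markers and 0.69 for 12 monocyte and macrophage markers, against 0.03 for 7 astrocyte markers. At 3 d these medians were 0.09, -0.10 and 0.02. Their part in the 14 d difference was not tested, and with 1 pool per group it cannot be told apart from a difference between these 2 pools.

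**Figure D3:**
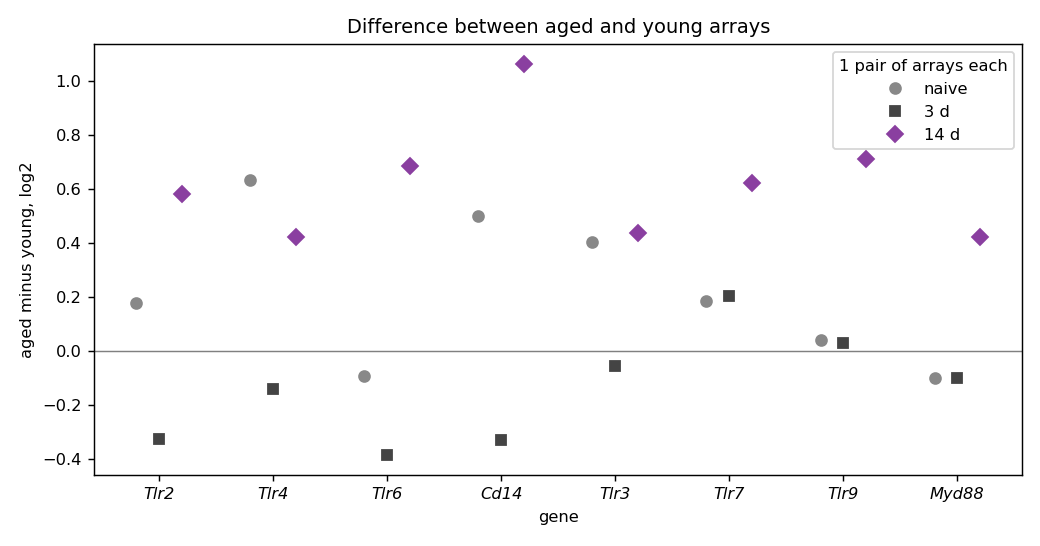
Aged minus young log2 difference of each gene in naive tissue (circles), at 3 d (squares) and at 14 d (diamonds), each from 1 pair of arrays and without error bars. All diamonds lie above 0, from 0.42 to 1.07, whereas at 3 d 6 of 8 genes lie below it.

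The genes with the most similar course were found by the root mean square difference between gene-centred log2 levels over the 6 arrays, as a description with no test. Tlr3 was nearest to Csf1r, the receptor for macrophage colony-stimulating factor (0.06), and to Npc2, a lysosomal cholesterol-binding protein (0.07). Tlr7 was nearest to Trem2, a lipid-sensing receptor of microglia and macrophages (0.08), and to Pld4, an endolysosomal exonuclease (0.10). Tlr9 was nearest to Havcr2, an inhibitory immune receptor (0.08), and the interferon-induced gene Ifi44 (0.09), and Tlr2 to the RNA-binding protein gene Rbm47 (0.07) and Soat1, which esterifies cholesterol (0.09). For Tlr4 these were Csf1, the ligand of Csf1r (0.10), and Gusb, a lysosomal glucuronidase (0.10), for Tlr6 Rarres1 (0.07) and Samsn1 (0.09), and for Myd88 Plxnb2, a semaphorin receptor (0.06), and Lpp (0.06). Cd14 had no neighbour as close. Its nearest were Plin2, a lipid droplet protein (0.18), and the Fc receptor gene Fcgr3a (0.22). Among the 8 genes themselves the closest pairs were Myd88 with Tlr6 (0.15), Tlr2 with Tlr3 (0.17) and Tlr2 with Tlr4 (0.17), while Cd14 lay 0.52 from its nearest, Tlr2.

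Other genes of the pathway were taken from lists by role, and no list was tested as a set. The counts called in each list stand beside 14.4% of all genes that rose and 7.87% that fell at 3 d. At 14 d 13.6% of all genes rose and 11.4% fell. Of the listed genes that rose, some lay below the 40th percentile on both naive arrays and passed the filter through stroke arrays alone. These were Ly96, Nrros, Irak4, Pik3ap1, Btk, Il1a, Il1rn, Ccl3, Ccl4, Cxcl10 and Hmgb2. The counts of their lists therefore lean in part on the filter, and the size of their rise is less certain. Of the other Toll-like receptors only Tlr12 had a probe set of its own, and Tlr5, Tlr8, Tlr10, Tlr11 and Tlr13 have no value here. Tlr12 had levels of 7.23 and 7.37 in young and aged naive tissue, 7.04 and 7.16 at 3 d, and 7.61 and 7.02 at 14 d, so its arrays overlapped. Its changes of -0.20 ± 0.19 at 3 d and 0.02 ± 0.19 at 14 d did not pass (adjusted p = 0.476 and 0.956), and the sign at 14 d turned under both scalings tried. Of 12 partners and trafficking proteins of the receptors tested 9 rose at each time, with medians of 1.51 and 1.66. Fewer of these partners passed at each time with the aged naive array left out. The largest were Unc93b1, which escorts the endosomal receptors (2.29 ± 0.20 at 3 d and 2.70 ± 0.20 at 14 d), Cd180 (2.62 and 2.58, ± 0.17) and its partner Ly86 (2.144 and 2.38, ± 0.18), and Pld4 (2.06 and 2.42, ± 0.15).

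Among all genes tested 14.4% rose at 3 d and 13.6% at 14 d. Of 14 adaptors and kinases tested 4 rose at 3 d and 5 at 14 d (medians 0.22 and 0.20). They were led by Btk, a tyrosine kinase (2.18 ± 0.30 and 2.05 ± 0.30), and Pik3ap1, a PI3-kinase adaptor (2.09 and 2.36, ± 0.24), followed by Irak4, the kinase recruited by Myd88 (1.20 and 1.06, ± 0.18), and Ikbke (0.70 and 0.70, ± 0.19). The adaptors Tirap, Ticam1 and Ticam2 have no value here. Without the aged naive array 1 of these 14 passed at 14 d, and the 14 d calls of Btk (adjusted p = 0.05), Irak4 (0.054) and Ikbke (0.314) were among those that ended. Those of Irak4 (0.0564) and Ikbke (0.0538) also ended without the young naive array, that of Ikbke also without the aged 14 d array (0.157), and at 3 d that of Ikbke without the young naive (0.0588), aged naive (0.341) or young 3 d array (0.185). Both calls of Ikbke also ended in a model of time alone (adjusted p = 0.0739 and 0.0656).

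Of 9 transcription factors 6 rose at 3 d and 7 at 14 d (medians 0.59 and 0.81). Irf8, a factor of the myeloid lineage, rose by 2.11 ± 0.17 and 2.57 ± 0.17, and Irf7, which drives interferon genes, by 0.63 ± 0.12 and 2.50 ± 0.12. Irf5 rose by 1.004 and 1.59 (± 0.17), and Irf3 changed by 0.82 ± 0.29 at 3 d (adjusted p = 0.0822) and rose by 1.11 ± 0.29 at 14 d. Without the aged naive array 1 of the 9 passed at 3 d and 3 at 14 d. The calls of Irf5 (adjusted p = 0.0805) and Irf7 (0.0703) at 3 d and of Irf3 (0.261) at 14 d then ended. That of Irf7 at 3 d also ended without the young naive (0.102) or young 3 d array (0.107), and that of Irf3 at 14 d without the aged 14 d array (0.0891) or in a model of time alone (0.0809).

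Negative regulators rose in 9 of 19 at 3 d and 10 of 19 at 14 d (medians 0.43 and 0.57), among them the myeloid signalling adaptor Tyrobp (2.20 and 2.35, ± 0.18), the phosphatases Ptpn6 (1.98 and 2.17, ± 0.17) and Inpp5d (1.86 and 1.88, ± 0.18), and Socs3, an inhibitor of cytokine signalling (1.49 ± 0.14 and 0.54 ± 0.14). Without the young naive array 6 passed at 3 d and without the aged naive array 5 at 14 d. The 14 d call of Socs3 ended without the young naive (adjusted p = 0.0536), aged naive (0.277) or aged 14 d array (0.0686).

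Of 20 cytokine and enzyme genes downstream of the receptors, 7 stayed below the 40th percentile on all arrays and were not tested: Tnf, Il6, Il10, Il12b, Cxcl2, Ifnb1 and Acod1. Of the 13 tested 6 rose at 3 d and 8 at 14 d (medians 0.59 and 0.76). Il1b (0.28 and 0.18, ± 0.16), Ccl5, Cxcl1, Ptgs2 and Nos2 were tested and passed at neither time. Ccl2, a chemokine for monocytes, rose by 4.52 ± 0.19 and 2.86 ± 0.19, Lcn2, an iron-binding acute phase protein, by 3.80 and 1.27 (± 0.21), and Cxcl10, an interferon-induced chemokine, by 1.70 and 2.92 (± 0.20). Ccl3, a macrophage chemokine, changed by 0.82 ± 0.38 at 3 d (adjusted p = 0.161) and rose by 1.83 ± 0.38 at 14 d. Without the young naive array 3 of the 13 passed at 3 d, and without the aged naive array 4 passed at 14 d and the call of Ccl3 ended (adjusted p = 0.156), as it did with trended and robust variances (0.0671). Of 6 genes tested whose proteins are described as endogenous ligands, 5 rose at 3 d and 4 at 14 d. Fn1 (fibronectin) rose by 2.30 and 1.67 (± 0.15). Of the proteoglycans Bgn rose by 1.62 and 2.25 (± 0.18), Dcn by 1.37 and 2.07 (± 0.16) and Vcan by 1.25 and 0.53 (± 0.12). Hmgb2 rose by 0.86 ± 0.12 at 3 d and did not pass at 14 d (0.30 ± 0.12, adjusted p = 0.107). The 14 d call of Vcan ended without the young naive (adjusted p = 0.158) or aged naive array (0.105). Hspd1, a mitochondrial chaperone on this list, changed by 0.09 and -0.33 (± 0.145, adjusted p = 0.68 and 0.139). S100a8, S100a9, Camp, Fga and Fgb stayed below the 40th percentile on all arrays.

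**Figure D4:**
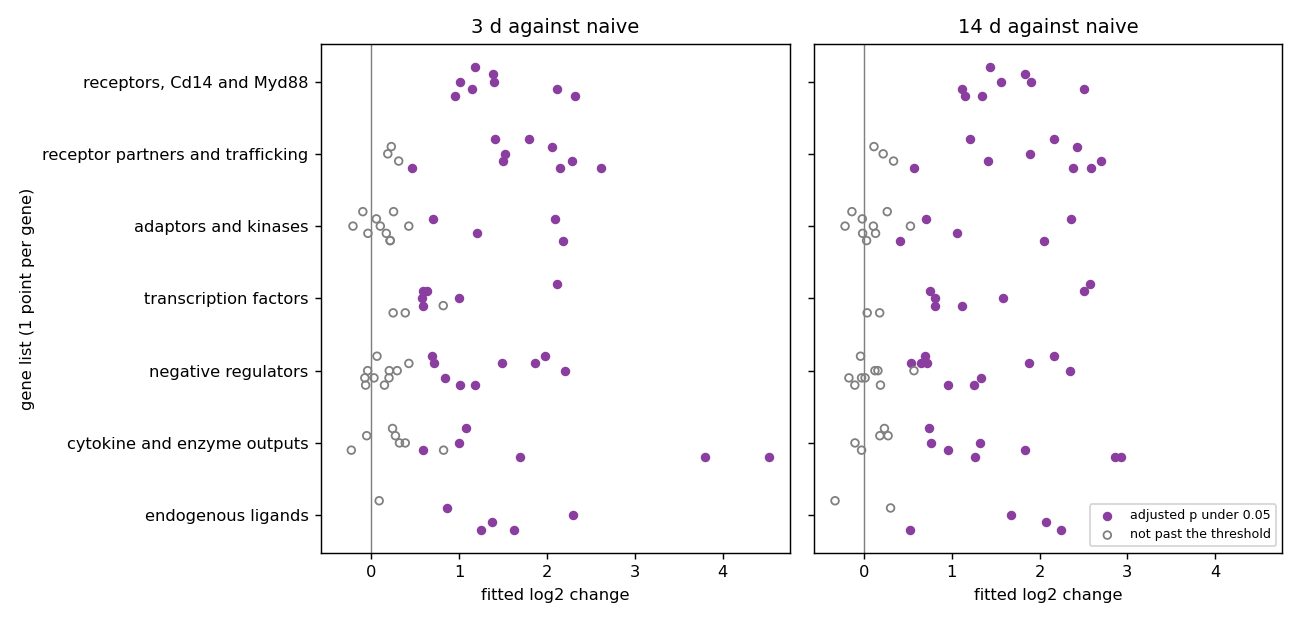
Fitted log2 change of the tested genes of the pathway lists, without Tlr12, at 3 d (left) and 14 d (right) against naive tissue, 1 point per gene; filled points had an adjusted p under 0.05 and open points did not. Of all genes tested 22.2% passed that threshold at 3 d and 25.0% at 14 d. All 8 receptor, co-receptor and adaptor genes are filled at both times. At 3 d so are 9 of 12 receptor partners, 4 of 14 adaptors and kinases, 6 of 9 transcription factors, 9 of 19 negative regulators, 6 of 13 outputs and 5 of 6 endogenous ligands.

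Marker genes of cells that carry these receptors rose as well. The counts of markers stand beside 14.4% of all genes that rose and 7.87% that fell at 3 d, and 13.6% and 11.4% at 14 d. Of the markers that rose, Fcrl2, Ccr2, Cd163, Plac8, F10, Mmp8 and Siglec1 passed the filter through stroke arrays alone. The counts of their lists lean in part on the filter. All 10 microglia markers tested rose at both times, with medians of 1.32 and 1.57, including Csf1r (1.45 and 1.79, ± 0.13) and Trem2 (1.99 and 2.33, ± 0.15). The range was wide. Tmem119 rose least (0.445 and 0.62, ± 0.13, with an adjusted p of 0.0458 at 3 d) and Fcrl2 most (4.52 and 4.21, ± 0.16). With quantile normalization 9 passed at 3 d. Of 12 monocyte and macrophage markers 11 rose at each time, with medians of 1.88 and 2.25, including Cd68 (3.55 and 4.14, ± 0.25) and Ptprc (2.82 and 2.95, ± 0.20). Fewer of them passed at each time with the young naive array left out. The log2 summed level of the microglia list was 12.01 and 12.32 in the naive pools and 13.61 to 14.08 in the stroke pools, and that of the macrophage list 10.58 and 10.70 against 12.62 to 13.52. For the 8 genes it was 9.91 and 10.11 against 11.51 to 12.11. The sums add unlogged values, so probe sets with high values weigh most, and the likeness of lists depends on that weighting. Of 10 neutrophil markers 3 were tested, and Mmp8 (2.53 and 2.52, ± 0.36) and Csf3r (2.03 and 1.96, ± 0.21) rose. Elane, the other one tested, changed by -0.32 at both times (± 0.18) and did not pass (adjusted p = 0.239 and 0.242). Mpo, Ngp, Ltf, Camp and Cxcr2 stayed below the 40th percentile on all arrays, as did the T cell genes Cd3d, Cd3e and Cd3g. Of 4 lymphocyte and dendritic cell markers tested 1 rose at each time, Siglec1 (2.35 and 2.44, ± 0.24). The others, Cd79b, Flt3 and Xcr1, passed at neither time. Of 9 neuron markers 2 fell at 3 d and 6 at 14 d, but 0 and 1 with either naive array left out, 0 at 3 d with either 3 d array left out, and 6 and 9 with trended and robust variances. Of 7 astrocyte markers 2 rose at 3 d and 4 at 14 d, led by Gfap (1.86 and 1.62, ± 0.205), with 1 at 3 d once medians were centred and 1 at each time with either naive array left out. Of 6 endothelial markers Pecam1 (0.996 and 0.50, ± 0.12), Cdh5 (0.95 and 0.96, ± 0.14) and Tek rose at both times, with 1 of the 6 markers past the threshold at 14 d with either naive array left out. Neuron, astrocyte and oligodendrocyte markers were all above the 40th percentile on every array. The part of these cell types in the rise of the 8 genes was not tested.

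**Figure D5:**
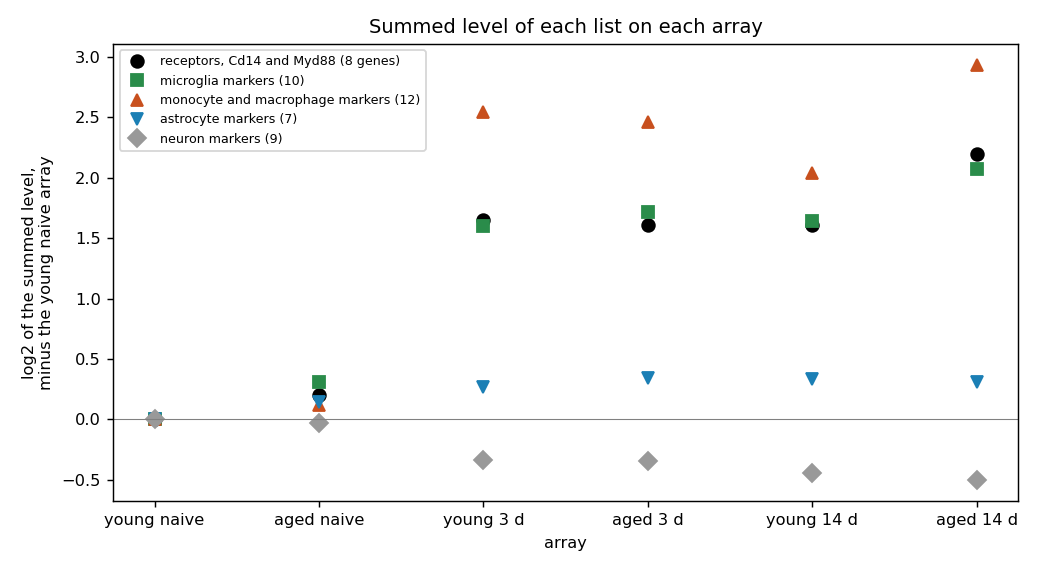
Log2 of the summed level of the 8 genes and of 4 marker lists on each array, minus the value of the young naive array, 1 point per list and array. On the stroke arrays the 8 genes lie beside the microglia markers, the macrophage markers lie above them and the neuron markers below 0. Each sum is weighted toward probe sets with high values, so these positions depend on that weighting.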

How the data were processed

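Affymetrix rat whole-transcript arrays were used, 1 for each of 6 groups. The deposited table holds a value for every probe set, read here as log2 from its range, since no source states the base. Per the labels' protocols, 200 ng of total RNA was amplified and biotin-labelled. R 2.14.0 and affy are named in the submitters' processing notes. For background correction, normalization and build, the method is not given in the sources used here. Array medians differ little, so overall changes in RNA content cannot be seen. There are no detection calls, and precision is limited by having 6 arrays.

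Of 28826 probe sets 15209 had 1 symbol in the platform annotation. A probe set was kept if at or above its array's 40th percentile anywhere, and the highest mean stood for a gene (10947 genes). An additive age and time model was fitted over the 6 arrays with limma 3.58.1 (R 4.3.3; 2 residual and 5.56 prior degrees of freedom), Benjamini-Hochberg threshold 0.05, and tested on simulated data. Members and lists were chosen with earlier results of these data known. Up to 4 genes per pathway list with the largest change were named. Some marker genes and genes below the filter were chosen after their values were seen. Names were matched by symbol or RefSeq synonym (GRCr8). The labels name no batch, so batch and group cannot be told apart.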

Additional observations from a re-analysis of the deposited data

Results flagged for a closer look

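In 12 comparisons of the ages the arrays of young and aged rats went opposite ways, either in their change between times or in the sign of the aged-minus-young difference at the times. Each rests on 1 pool per group and was not tested. The comparisons were made for all 8 genes between every pair of the 3 times. The share of all genes that would be flagged in this way was not computed, so the count is not a trait of these genes. Of all genes tested, the aged array lay above the young one for 48.8% in naive tissue, 37.5% at 3 d and 52.1% at 14 d. From 3 d to 14 d the array value was lower in young and higher in aged rats for 4 genes, none of which passed the test of 14 d against 3 d. These were Tlr2 (-0.29 and 0.62, a change larger in aged by 0.91), Tlr4 (-0.04 and 0.53, larger by 0.57), Tlr6 (-0.33 and 0.74, larger by 1.07) and Myd88 (-0.30 and 0.23, larger by 0.53). Cd14 was lower at 14 d in both ages, also without passing that test (-1.68 and -0.28, a difference of 1.39) and Tlr3 was higher in both (0.20 and 0.69, a difference of 0.49). For each of these 2 genes the aged pool was the lower one at 3 d and the higher one at 14 d.

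From naive to 3 d the aged pool turned from the higher to the lower one for Tlr2 (change in aged minus change in young -0.50), Tlr3 (-0.46), Tlr4 (-0.78) and Cd14 (-0.83). From naive to 14 d it turned from the lower to the higher one for Tlr6 (0.78) and Myd88 (0.52). Outlying arrays could not be looked for, since each group had 1 array.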

How the results depend on the processing

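Against naive tissue, 106 values of single genes under the alternatives kept direction and side of the threshold at 3 d and 106 at 14 d. The other 5 at each time lost the threshold when 1 array was left out. For 14 d against 3 d, 93 did not change, 7 lost the threshold, 4 passed it and 7 turned their sign. Leaving out 1 array gave 6 to 8 of the 8 genes called at 3 d, 5 to 8 at 14 d, 0 to 3 for 14 d against 3 d and 0 for age. Over all genes it gave 746 to 3726, 752 to 3470, 221 to 573 and 0 to 2, against 2432, 2734, 346 and 0 as reported. For 14 d against 3 d, 0 of the 8 passed with medians centred, with no filter and with time alone in the model. With trended and robust variances 1 gene of 10947 was called for age. Over single arrays left out, the 14 d against 3 d change ran from -0.19 to 0.516 for Tlr2, from -0.088 to 0.582 for Tlr4, from -0.257 to 0.671 for Tlr6 and from -0.296 to 0.229 for Myd88. The aged against young difference ran from -0.075 to 0.379 for Tlr2, from -0.24 to 0.297 for Tlr6 and from -0.1 to 0.162 for Myd88. The 14 d change of Tlr12 ran from -0.342 to 0.38, and was -0.029 with quantile normalization and -0.037 with medians centred. The cause was not tested. With medians centred, 44.2% of the calls at 14 d were higher, against 54.5% as reported. Tlr6 did not reach the stricter filter (60th percentile). Alternatives for listed genes and list counts were chosen after seeing the data. No paired analysis was possible because the labels give no replicate numbers and each group was 1 array, beyond the age term of the model, which compares the times within each age. Levels near background limit the size of the changes of Tlr2, Tlr6 and Cd14.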
